A study of Mus musculus with 6 samples.

Results

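The genes described here build, fold and clear proteins under stress: 75 of the 9295 genes of a mouse expression table, taken by name alone. A gene entered if its symbol began with Pdia, Dnaja, Dnajb, Dnajc, Hsp, Derl, Edem, Sec61, Sec62, Sec63 or Sel1l, or was 1 of 18 further symbols of the stress response, of which 13 were in the table. Atf4, Xbp1, Ern1, Herpud1 and Ppp1r15a, the other 5, were not analysed here, and neither were several relatives such as Hspa1a, Hspa8 and Dnajc3. The rule uses symbols and no measured value, but it was set with earlier results of these data known. The prefixes also took in genes of other function, such as Hspg2, which encodes the matrix proteoglycan perlecan.

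Proteins bound for secretion or the cell surface enter the endoplasmic reticulum (ER) through the Sec61 channel and are folded there by chaperones, by lectins that read their sugar chains, and by protein disulfide isomerases. Chains that fail to fold are drawn back to the cytosol and destroyed, a route called ER-associated degradation. When unfolded proteins accumulate, the sensors IRE1, PERK and ATF6 switch on the unfolded protein response, and PERK also feeds the integrated stress response, in which translation slows and the factor ATF4 induces amino acid and transport genes. In the cytosol the heat shock factor HSF1 governs a separate chaperone set, and mitochondria keep chaperones of their own. Plasma cells and other secretory cells are known for the highest levels of the ER set.

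RNA came from bone marrow of mice with acute myeloid leukemia, labelled as leukemia cells. Of the 6 libraries, 3 are labelled KO, with the genotype PAPOLA KO, a knockout of the gene of the main nuclear poly(A) polymerase, and 3 are labelled Con, with the genotype PAPOLA flox/flox, in which recombination sites flank part of the gene on both alleles. The study asked how the enzyme acts in this leukemia. The labels give no Cre line, leukemia driver, strain, age, sex or sort, and are silent on whether each sample is a mouse of its own, so a p-value here sets the difference against the scatter among 3 samples a group, which may be technical.

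Counts for the genes in the table summed to 8875022 to 9768143 per KO-labelled library and 11253932 to 11436216 per Con-labelled library. Papola had 342, 361 and 314 CPM (counts scaled to a common library size by the trimmed mean of M-values, TMM) in the KO-labelled libraries, against 284, 297 and 291 CPM in the Con-labelled ones, and was 1.17-fold higher (edgeR's quasi-likelihood test, adjusted p = 0.0291). These are counts over the whole gene, so they do not check the deletion, and every direction below rests on the labels. Con replicates 2 and 3 were far more alike (chi-square per degree of freedom 1.68) than any other pair of one group (17.7 to 23.7). Summing that pair into 1 sample left 16 stress-response genes higher and 46 lower, as in the main test. All 12 late neutrophil markers listed for a check of cell types rose in the KO-labelled libraries, with summed levels of 168061 to 193077 CPM against 2363 to 2539 CPM, and so did all 10 erythroid markers, with 17014 to 24106 CPM against 136 to 218 CPM. Of 9 macrophage markers 5 fell and 4 rose, with sums of 832 to 1528 CPM against 12198 to 19090.1 CPM. Most of the Con sum was Gpnmb, with 6.54 to 9.23 CPM in KO against 10091 to 16363 CPM in Con. C1qa, C1qb and C1qc were among the 4 that rose. Of 9 myeloid identity genes 8 rose and 1 fell, all 8 T and NK cell markers rose, and of 4 B cell markers 1 rose. Over all genes tested 39.6% rose and 42.4% fell. Of these markers, Ly6g, Alas2, Epb42, Slc4a1, Cd4, Klrb1c, Cd3d, Cd3e, Cd3g and Vpreb1 had at most 10 counts in any Con library. They passed the test's filter on low counts through the KO-labelled libraries alone, so they had to differ and their calls carry no weight. Plasma cells are rich in ER chaperones, but of 10 plasma cell markers listed only 2, Fkbp11 and Prdm1, were in the table. Both fell, with sums of 5.92 to 5.96 CPM against 31.2 to 32.7 CPM. Sdc1, Jchain and Mzb1 were among those absent, so these 2 say little about plasma cells. No marker of these lists was at 0 in a whole group. In such bulk samples, fewer cells of a type and less RNA per cell cannot be told apart, and the part of the changed cell makeup in the results below was not tested.

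The set leaned towards lower levels in the KO-labelled libraries. Of the 75 genes 74 passed the filter on low counts; Dnajb3, with at most 12 counts in a library, did not. Among the 74, 46 fell and 16 rose at an adjusted p under 0.05, and 12 had no call. Over all 8358 genes tested 42.4% fell and 39.6% rose, 82.0% in all, so a call by itself says little here; of the 74, 62.2% fell and 21.6% rose. The median log2 fold change, KO over Con, was -0.64 for the 74 and -0.06 for all genes. Falls of at least 2-fold were found for 18 of the 74, near the 23.8% of all genes. The CPM ranges of the groups did not overlap for 62 of the 74, as for 84.5% of all genes. Pdia2 and Hspa12b passed the filter through the KO-labelled libraries alone and Sel1l3 through the Con-labelled ones alone, so these 3 had to differ, and their calls carry no weight. The counts above include them. A stricter filter on low counts left these 3 untested. Of the 70 members it tested 45 fell and 14 rose, and of its 7397 genes 3127 fell and 2918 rose. With library size as the only scaling, which moved the median of all genes by -0.35, 54 of the 74 fell and 10 rose. On that scale the whole set took 0.956% to 1.12% of counts in KO-labelled libraries and 2.27% to 2.31% in Con-labelled ones.

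**Figure D1:**
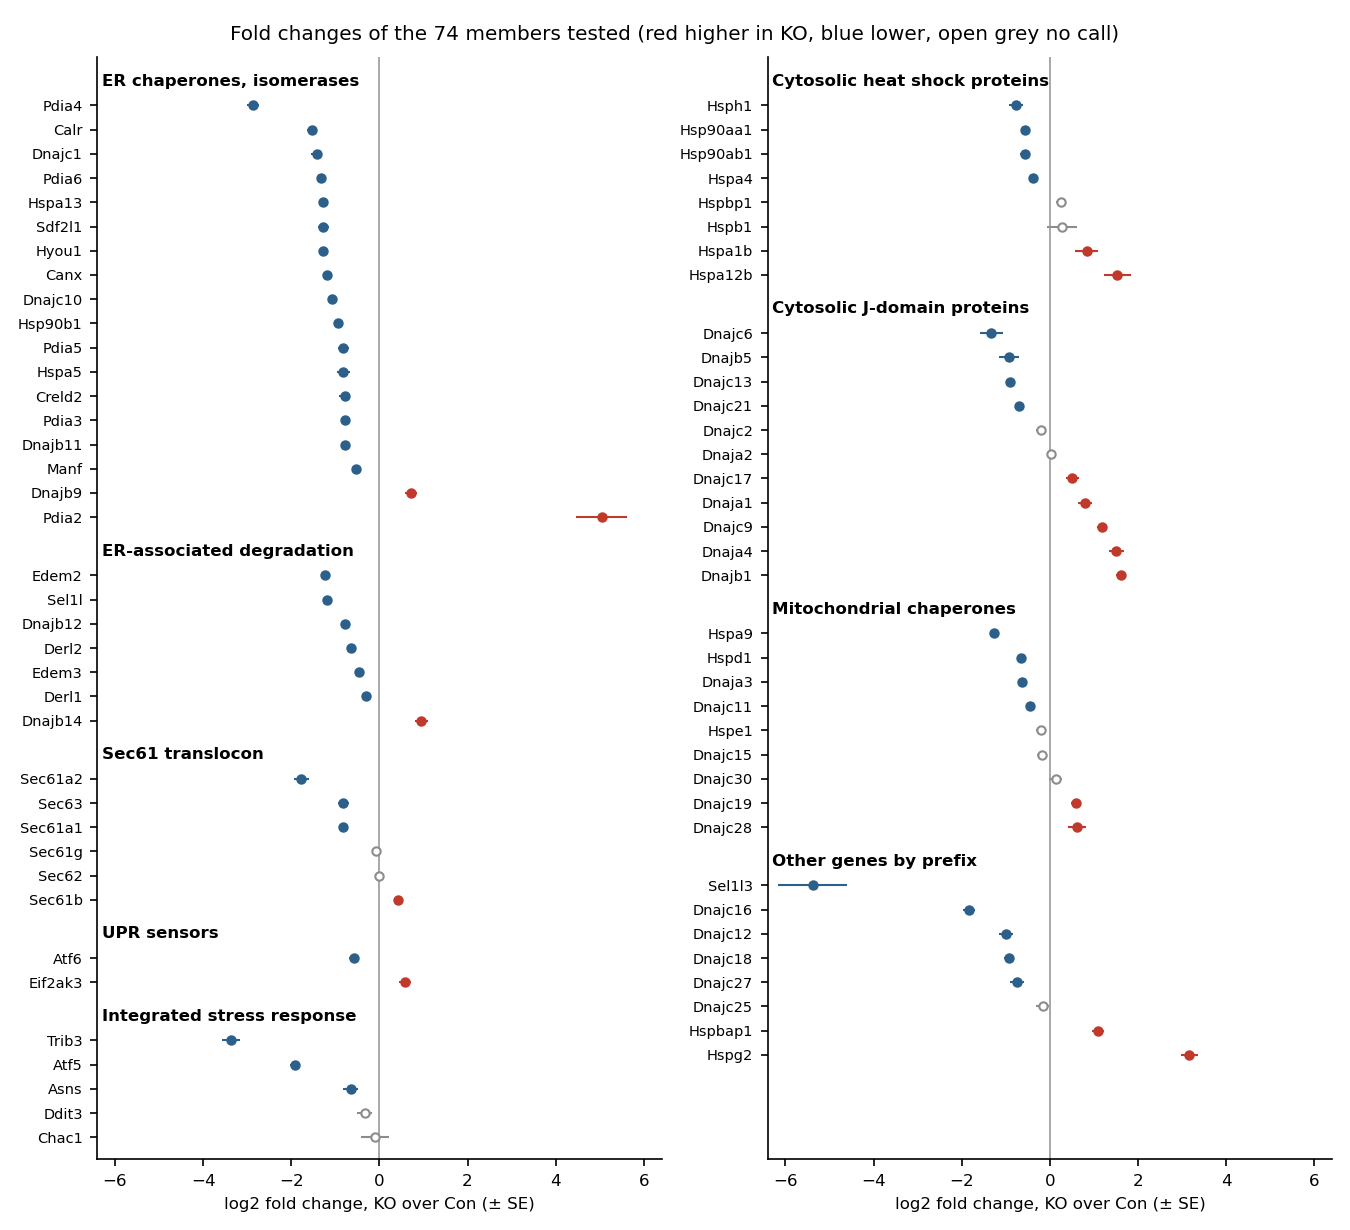
Log2 fold changes (KO over Con, horizontal axis) with standard errors for the 74 genes tested, grouped by role in 2 panels. Red points rose, blue points fell and open grey points had no call at an adjusted p of 0.05. ER chaperones lie left of 0 except Dnajb9 and Pdia2, while cytosolic J-domain proteins fall on both sides.

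The counts differed by compartment, and stand beside 42.4% lower and 39.6% higher over all genes tested. Of 18 ER chaperones, isomerases and their cochaperones 16 fell and 2 rose (median -1.0), and of 7 ER-associated degradation genes 6 fell and 1 rose (median -0.65). The call of Pdia2, 1 of the 2 ER chaperones that rose, carries no weight. Of the 17 ER chaperones that passed the stricter filter 16 fell and 1 rose (median -1.03). Of 11 tested J-domain proteins of cytosol, nucleus and vesicles 4 fell and 5 rose (median 0.03, but -0.06 when scaled by the upper quartile and -0.33 by library size alone). ER chaperones together took 0.398%, 0.475% and 0.460% of counts in KO replicates 1, 2 and 3, against 1.14%, 1.25% and 1.25% in Con replicates 1, 2 and 3, a 2.74-fold smaller share. Cytosolic J-domain proteins took 0.0930%, 0.120% and 0.119% in the KO-labelled libraries, against 0.113%, 0.107% and 0.107% in the Con-labelled ones, and these shares overlap. Shares of counts carry no scaling between libraries. On the TMM scale the cytosolic J-domain proteins summed to 1061, 1329 and 1354 CPM in KO replicates 1, 2 and 3, against 963, 963 and 962 CPM in Con replicates 1, 2 and 3, so that every KO sum lay above every Con sum. ER chaperones summed to 4545, 5280 and 5258 CPM in the KO group, against 9762, 11264 and 11277 CPM in the Con group, and were lower on both scales. The difference between the classes was not tested.

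**Figure D2:**
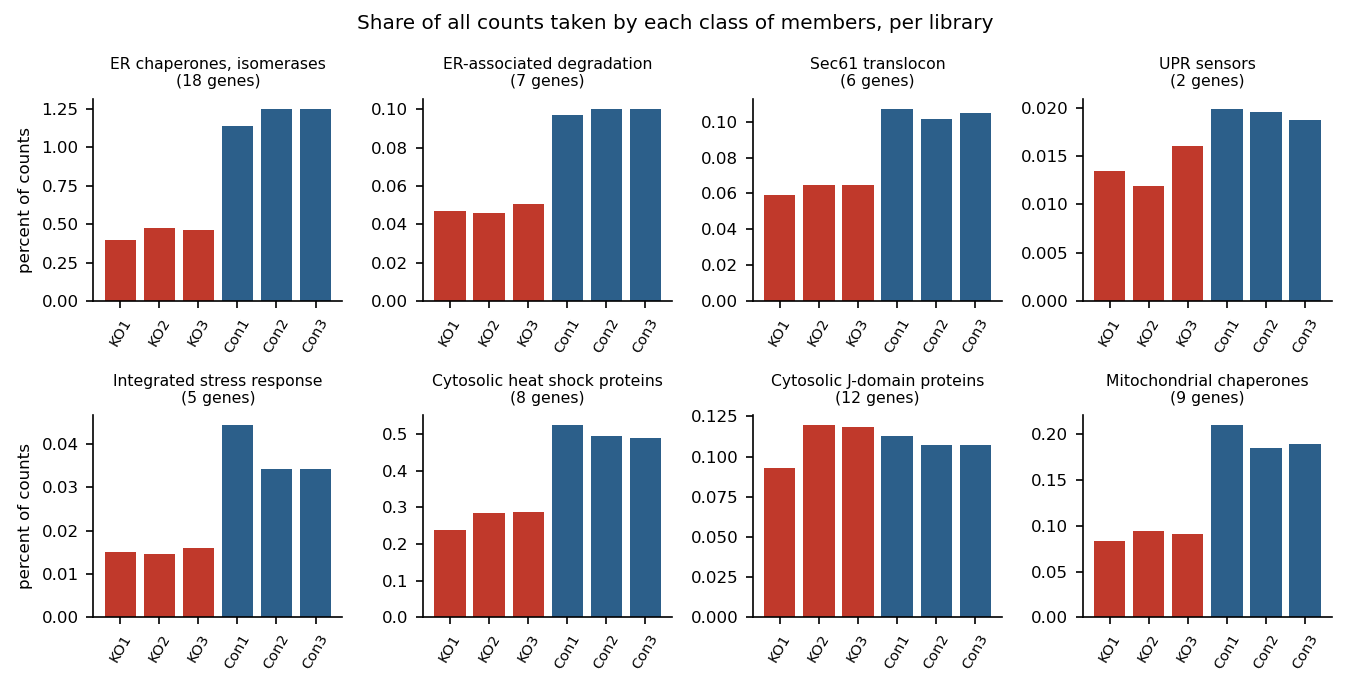
Percent of all counts in the table (vertical axis, a separate scale per panel, from 0) taken by each class of genes in each library, KO in red on the left and Con in blue on the right. Of the classes drawn, all but the cytosolic J-domain proteins have their 3 KO bars below their 3 Con bars. On the TMM scale the stress sensors overlap instead, with 132 to 184 CPM in KO and 169 to 176 CPM in Con, and the cytosolic J-domain proteins are higher in each KO library.

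The ER chaperones that fell include the 4 most abundant of their class. Hspa5, also called BiP, is the Hsp70 of the ER lumen and holds the stress sensors inactive. It had 880.5, 1185 and 1269 CPM in KO replicates 1, 2 and 3, against 1719, 2076 and 2085 CPM in Con replicates 1, 2 and 3. Calr, calreticulin, which with calnexin retains glycoproteins until they fold, had 751, 857 and 856 CPM in KO-labelled libraries, against 2161, 2535 and 2465 CPM in Con-labelled ones. In neither gene did the groups overlap; Hspa5 changed by -0.82 (log2, SE 0.14, adjusted p = 0.000504) and Calr by -1.54 (SE 0.10, adjusted p = 6.6e-07). Hsp90b1, the ER form of Hsp90, also called Grp94, had 692, 818 and 783 CPM, against 1293, 1506 and 1563 CPM in the Con group. Pdia3, the isomerase that works with calreticulin, had 649, 698 and 653 CPM in the KO group, against 1040.0, 1205 and 1200.0 CPM in the Con group. Both fell, by log2 changes of -0.93 (SE 0.11) and -0.78 (SE 0.09). Counts of Hspa5 and Pdia3 are not whole numbers in some libraries, a sign that reads were divided with another gene.

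Per kilobase of the longest protein-coding transcript in GENCODE M21, the KO order began with Hsp90ab1, Calr, Hspa5 and Hsp90b1 (708, 376, 303 and 270.5 CPM per kb) and the Con order with Calr, Hsp90ab1, Hspa5 and Hsp90b1 (1093, 1041, 534 and 515 CPM per kb). In the Con-labelled libraries the ranges of the first pair overlapped, with Calr at 989 to 1161 and Hsp90ab1 at 1010 to 1091 CPM per kb, as did those of Hspa5 and Hsp90b1 in both groups. In the KO-labelled libraries Hsp90ab1, at 606 to 794 CPM per kb, lay above Calr, at 344 to 393 CPM per kb. The widest moves in this order were those of Trib3, an integrated stress response gene at rank 65 of 75 in KO and rank 39 in Con, and of Dnajb1, a cytosolic cochaperone at rank 22 in KO and rank 45 in Con. Pdia4 stood at rank 28 in KO and rank 9 in Con.

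Pdia4, an isomerase with an additional thioredoxin-like domain, showed the steepest fall among ER chaperones. Its levels were 71.6, 98.7 and 73.4 CPM in KO replicates 1, 2 and 3 and 535, 619 and 633 CPM in Con replicates 1, 2 and 3, a 7.33-fold difference (log2 -2.88, SE 0.14, adjusted p = 9.46e-08). Of the other isomerases Pdia6 fell by 1.32 and Pdia5 by 0.82 on the log2 scale. Canx, calnexin, the membrane-bound partner of calreticulin, fell by 1.19, and Hyou1, the nucleotide exchange factor of BiP also called Grp170, by 1.27. Sdf2l1, a cofactor of BiP, fell by 1.28, and Hspa13, an Hsp70-like protein of microsomes, by 1.28. The BiP cochaperones Dnajc1, Dnajc10 and Dnajb11 fell by 1.42, 1.07 and 0.77, and the secreted stress-induced proteins Creld2 and Manf by 0.79 and 0.53. In all of these the 3 KO values lay below the 3 Con values.

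Dnajb9 and Pdia2 went the other way. Dnajb9, also called ERdj4, a BiP cochaperone that represses the sensor IRE1, had 98.0, 86.5 and 123 CPM in KO-labelled libraries, against 57.6, 66.6 and 62.9 CPM in Con-labelled ones (log2 0.72, SE 0.13, adjusted p = 0.000566). Per unit of Hspa5, it stood at 0.111, 0.0730 and 0.0971 in KO replicates 1, 2 and 3, against 0.0335, 0.0321 and 0.0302 in Con replicates 1, 2 and 3. All 3 KO ratios lay above the 3 Con ratios, for a pair chosen after its values were seen. Pdia2, an isomerase known from the pancreas, rested on 51, 19 and 24 counts in KO replicates 1, 2 and 3 and on 1, 2 and 1 counts in Con replicates 1, 2 and 3. It passed the filter through the KO-labelled libraries alone.

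**Figure D3:**
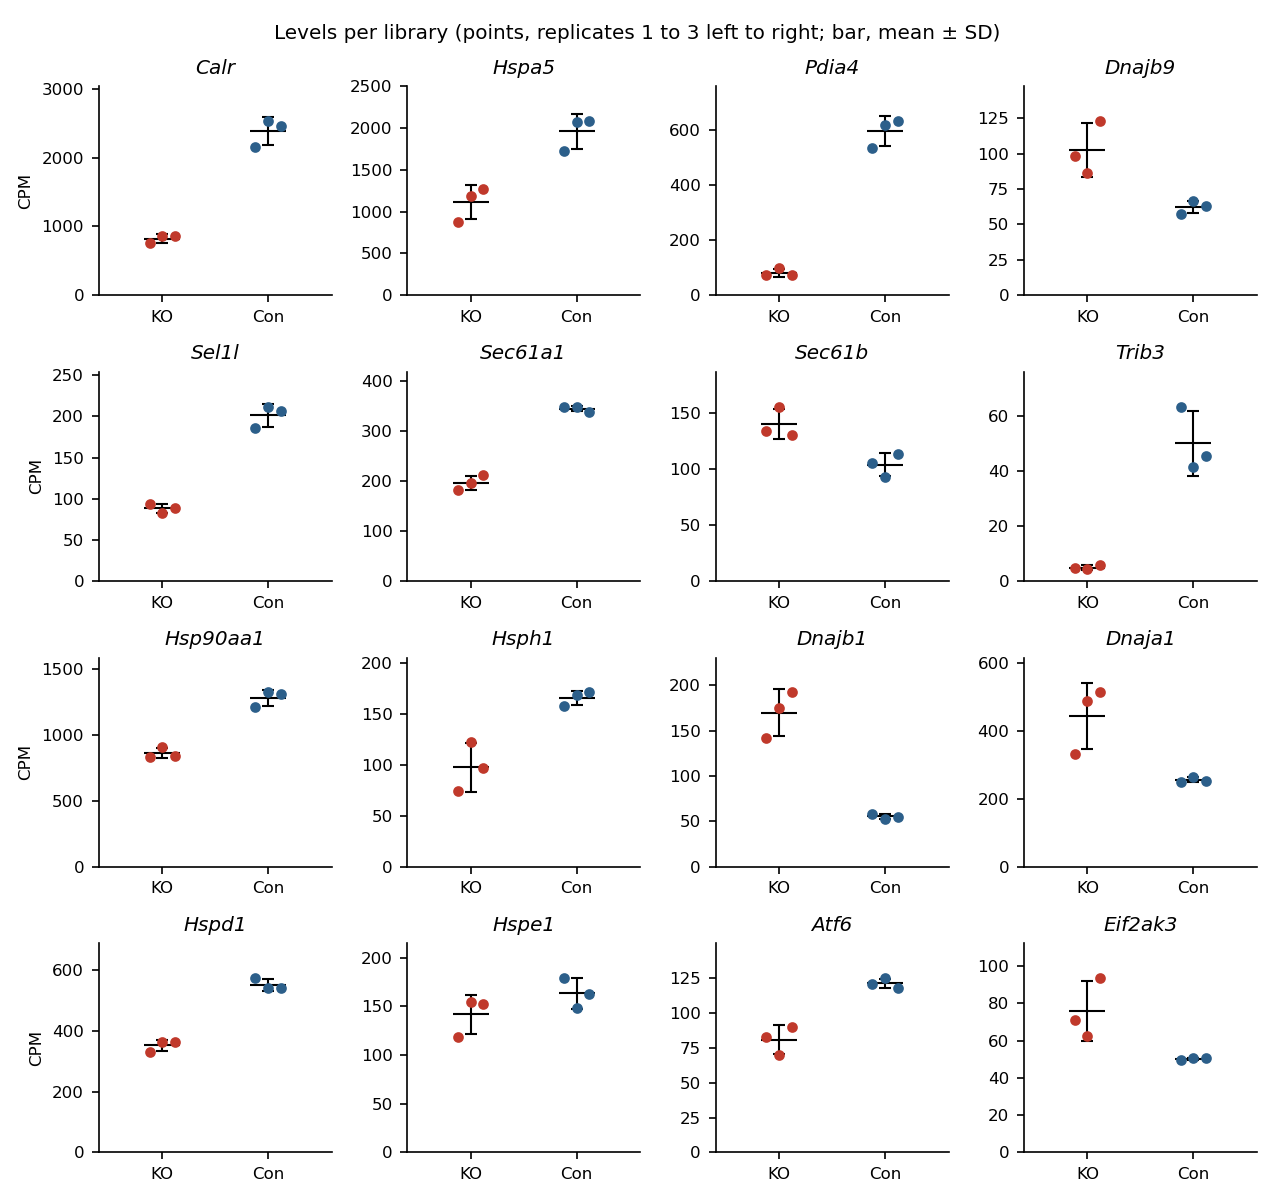
CPM (vertical axis, from 0, a separate scale per gene) of 16 genes in each library, KO in red on the left and Con in blue on the right; points are replicates 1 to 3 from left to right, and bars give the mean and SD. Calr, Hspa5, Pdia4, Sel1l, Sec61a1, Trib3, Hsp90aa1, Hsph1, Hspd1 and Atf6 are lower in KO, Dnajb9, Sec61b, Dnajb1, Dnaja1 and Eif2ak3 are higher, and Hspe1 overlaps.

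The promoters of the ER chaperones carried a feature that the choice by symbol did not use. Windows of 300 bases (250 before the transcription start and 50 after it) were held for 60 of the 75 genes and for 7341 genes of the table, from RefSeq on build GRCm38.p6. The ER stress response element, CCAAT and CCACG with 9 bases between them, is bound by NF-Y and ATF6. Searched on both strands, it was in the windows of 6 of the 60 genes (10%) and of 11 of the 7341 (0.15%). Its second form, ATTGG and CCACG with 1 base between them, was in 1 of the 60, Dnajb11, and in 5 of the 7341 (0.0681%). All 7 carriers are ER chaperones, of which 15 had a window, and Hspa13, Hyou1 and Manf had none. A match is a run of letters and no proof of a site. Nor does a window without a match prove absence, since variants of the element and bases outside the window were not searched. The sequences below show each match in capitals with 20 bases on either side, on the strand of the gene, 5′ to 3′. Calr and Creld2 carry the element on the other strand, and in Hsp90b1 the first copy is on the strand of the gene and the second on the other.
Hspa5 (chr2:34772005-34772063, + strand): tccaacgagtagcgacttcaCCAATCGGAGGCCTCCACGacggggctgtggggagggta
Calr (chr8:84847055-84847113, - strand): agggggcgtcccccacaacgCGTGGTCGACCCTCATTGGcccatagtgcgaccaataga
Hsp90b1 (chr10:86705513-86705676, - strand): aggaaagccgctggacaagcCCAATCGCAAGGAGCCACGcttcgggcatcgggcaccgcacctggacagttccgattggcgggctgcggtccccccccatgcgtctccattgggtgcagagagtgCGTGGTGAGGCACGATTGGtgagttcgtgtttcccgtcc
Canx (chr11:50325780-50325838, - strand): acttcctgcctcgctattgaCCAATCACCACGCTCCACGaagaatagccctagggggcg
Pdia6 (chr12:17266471-17266529, + strand): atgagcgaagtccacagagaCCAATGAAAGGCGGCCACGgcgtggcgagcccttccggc
Creld2 (chr15:88819500-88819558, + strand): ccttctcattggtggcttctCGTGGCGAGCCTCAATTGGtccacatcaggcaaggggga
Dnajb11 (chr16:22857832-22857882, + strand): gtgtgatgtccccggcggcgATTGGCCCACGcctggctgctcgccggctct

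The 7 carriers all fell, by log2 changes of -1.54 to -0.77 (median -0.93). Of the 8 ER chaperones with a window and no match 6 fell and 2 rose, from -2.88 to 5.05 (median -0.94), and these include Pdia4, with the steepest fall, and both genes that rose. The 5.05 is that of Pdia2, which passed the filter through the KO-labelled libraries alone and carries no weight. Next below it among the 8 was Dnajb9, at 0.72. The medians of the 7 and the 8 were nearly the same. Over all genes tested 42.4% fell and 39.6% rose. In all, 16 genes of the table carried either form, of which 13 fell, 2 rose and 1 had no call (median -0.95). Calr4, 1 of the 2 that rose, averaged 2.14 CPM in KO and 0.0 CPM in Con. It could pass the filter only through the KO-labelled libraries, so its call carries no weight. Zfp57, the steepest fall of the 16, was low in both groups, at 0.488 CPM in KO and 2.60 CPM in Con. Among the 9 carriers that are no member of the set, Alg12, which builds the sugar chain added to new glycoproteins, shares the very element of Creld2 (chr15:88819520-88819538) and fell by 0.69 (SE 0.12). The CCAAT box alone was common, in 31 of the 60 windows (51.7%) and in 42.6% of all. The unfolded protein response core TGACGTGG was in Dnajc25 alone among the 60 (0.926% of all genes), and the ATF4 core TTGCATCA in Chac1 alone (0.749% of all genes). Neither Dnajc25 nor Chac1 had a call.

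**Figure D4:**
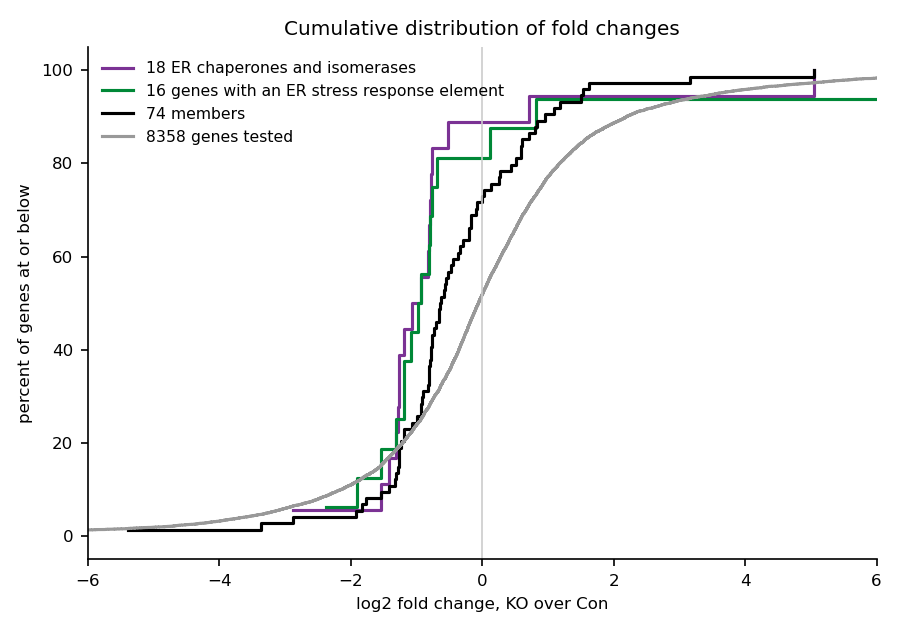
Cumulative percent of genes (vertical axis) at or below each log2 fold change, KO over Con (horizontal axis, shown from -6 to 6), for the 18 ER chaperones, the 16 genes of the table with an ER stress response element, all 74 genes of the set tested and the 8358 genes tested. The curves of the ER chaperones and of the element carriers climb steeply around -1, left of the curve for all genes, which passes 0 near its middle.

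In ER-associated degradation the same direction prevailed. Sel1l, the adaptor of the Hrd1 ubiquitin ligase that hands over misfolded chains, had 93.7, 82.5 and 88.1 CPM in KO-labelled libraries, against 186, 212 and 207 CPM in Con-labelled ones (log2 -1.19, SE 0.09, adjusted p = 1.24e-06). Edem2, which trims mannose and so starts the disposal of glycoproteins, had 89.3, 80.6 and 96.4 CPM in the KO group, against 185, 217 and 223 CPM in the Con group (log2 -1.23, SE 0.10). Neither gene overlapped between groups. Edem3 fell by 0.47, and the derlins Derl2 and Derl1, membrane proteins of the exit channel, by 0.65 and 0.29. The 2 membrane J-domain proteins of this route moved apart. Dnajb12 had 37.9, 33.8 and 39.8 CPM in KO replicates 1, 2 and 3, against 61.9, 65.8 and 63.2 CPM in Con replicates 1, 2 and 3, while Dnajb14 had 30.7, 30.6 and 41.6 CPM in the KO group, against 16.4, 18.5 and 18.2 CPM in the Con group (log2 0.95, SE 0.14, adjusted p = 0.000163).

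The subunits of the Sec61 channel did not move together. Sec61a1, the pore, had 182, 195 and 211 CPM in KO-labelled libraries, against 348, 347 and 338 CPM in Con-labelled ones, and fell by 0.82 (SE 0.08, adjusted p = 1.04e-05). Sec61b, a small accessory subunit, had 134, 156 and 131 CPM in the KO group, against 106, 92.9 and 114 CPM in the Con group, a rise of 0.43 (SE 0.10, adjusted p = 0.00347) that was lost with library size only (0.08, adjusted p = 0.531). Sec61g, the other small subunit, had 133, 153 and 134 CPM, against 157, 134 and 152 CPM in the Con group, and overlapped. Set against Sec61a1, which needs no scaling between libraries, Sec61b stood at 0.738, 0.802 and 0.622 in KO replicates 1, 2 and 3, against 0.304, 0.268 and 0.336 in Con replicates 1, 2 and 3. Sec61g stood at 0.730, 0.787 and 0.638 in KO replicates 1, 2 and 3, against 0.451, 0.387 and 0.448 in Con replicates 1, 2 and 3. The KO ratios were above the Con ratios in both cases, although these pairs were chosen after their values were seen.

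Sec61a2, the second pore gene, had 11.1, 6.91 and 7.34 CPM in KO-labelled libraries, against 28.8, 28.1 and 30.2 CPM in Con-labelled ones (log2 -1.77, SE 0.17). Sec63, the J-domain partner that recruits BiP to the channel, had 87.2, 92.1 and 118 CPM in the KO group, against 161, 183 and 179 CPM in the Con group (log2 -0.81, SE 0.12). Sec62, which acts with Sec63 on short precursors, had 126, 115 and 138 CPM in the KO group, against 118, 131 and 131 CPM in the Con group, with ranges that overlap and a log2 change near 0 whose sign depended on the setting. With library size only Sec62 passed the test at -0.36 (adjusted p = 0.00295) and so did Sec61g at -0.43 (adjusted p = 0.00294).

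The 2 stress sensors measured went opposite ways. Atf6, which on stress moves to the Golgi and is cut to free a transcription factor, had 82.7, 69.9 and 90.0 CPM in KO-labelled libraries, against 121, 125 and 118 CPM in Con-labelled ones (log2 -0.58, SE 0.10, adjusted p = 0.000411). Eif2ak3, PERK, the kinase that slows translation, had 71.2, 62.4 and 93.6 CPM in the KO group, against 49.8, 50.8 and 50.5 CPM in the Con group (log2 0.59, SE 0.14, adjusted p = 0.00275), a call lost with library size only (0.23, adjusted p = 0.122). The ratio of Eif2ak3 to Atf6 was 0.860, 0.892 and 1.04 in KO replicates 1, 2 and 3, against 0.413, 0.406 and 0.428 in Con replicates 1, 2 and 3. These are levels of messenger RNA and not of sensor activity.

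Of the 5 genes of the integrated stress response 3 fell and 2 had no call, where 42.4% of all genes tested fell. Trib3, a pseudokinase induced late in the response that restrains ATF4, had 4.56, 4.19 and 5.79 CPM in KO replicates 1, 2 and 3, against 63.6, 41.4 and 45.5 CPM in Con replicates 1, 2 and 3, a 10.4-fold difference (log2 -3.37, SE 0.21, adjusted p = 4.41e-07). Atf5, a transcription factor translated preferentially under stress, had 18.5, 15.9 and 18.4 CPM, against 63.0, 65.5 and 72.1 CPM in the Con group (log2 -1.93, SE 0.10). Asns, asparagine synthetase, had 95.6, 85.6 and 74.6 CPM in the KO group, against 169.6, 118 and 115 CPM in the Con group (log2 -0.66, SE 0.16, adjusted p = 0.00406). In none of these did the groups overlap, although in Asns they came close.

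Ddit3, which encodes the death-promoting factor CHOP, had 44.9, 51.3 and 74.5 CPM in KO-labelled libraries, against 70.5, 76.5 and 68.1 CPM in Con-labelled ones (log2 -0.34, SE 0.17, adjusted p = 0.0893). KO replicate 3 lay inside the Con range, and without it the gene passed (-0.58, adjusted p = 0.00062), as it did with the replicate block, although the replicate numbers were not found to pair the samples (-0.36, adjusted p = 0.0475), with upper-quartile scaling (-0.43, adjusted p = 0.0305), with library size only (-0.69, adjusted p = 0.00286) and with limma-voom (-0.42, adjusted p = 0.0149). Chac1, an enzyme that breaks down glutathione, had 8.65, 5.30 and 9.65 CPM in the KO group, against 12.2, 6.13 and 6.88 CPM in the Con group (log2 -0.10, SE 0.31, adjusted p = 0.778). Its groups overlapped, and the sign turned to 0.28 without Con replicate 1.

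Con replicate 1 stood above the other 2 Con libraries in several of these genes. It was 1.88 times their mean in Chac1, 1.46 times in Trib3 and 1.45 times in Asns, the 3 widest spreads within Con among the 68 members at 5 CPM or more there (coefficients of variation of 39.4%, 23.5% and 22.8%, against a median of 5.61% over 60 members at 10 CPM or more in both groups). Of 29 integrated stress response genes with a mean Con level of at least 5 CPM, 8 (27.6%) were more than 1.3 times higher in Con replicate 1, a limit set after the values were seen, against 4.03% of all genes at that level. The 8 were Shmt2, Slc7a5, Stc2, Trib3, Asns, Chac1, Pck2 and Ddit4. The ER chaperones Hspa5, Hsp90b1 and Calr were lower in the same library, at 0.826, 0.843 and 0.864 times the mean of Con replicates 2 and 3. Atf5 and Ddit3, at 0.915 and 0.974 times that mean, did not stand higher in Con replicate 1. Others of the 29 were lower in it, among them Cebpb, Slc7a11 and Atf3 at 0.366, 0.753 and 0.809 times that mean. The median of this ratio was 1.11 over the 29 and 0.999 over all genes at that level.

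**Figure D5:**
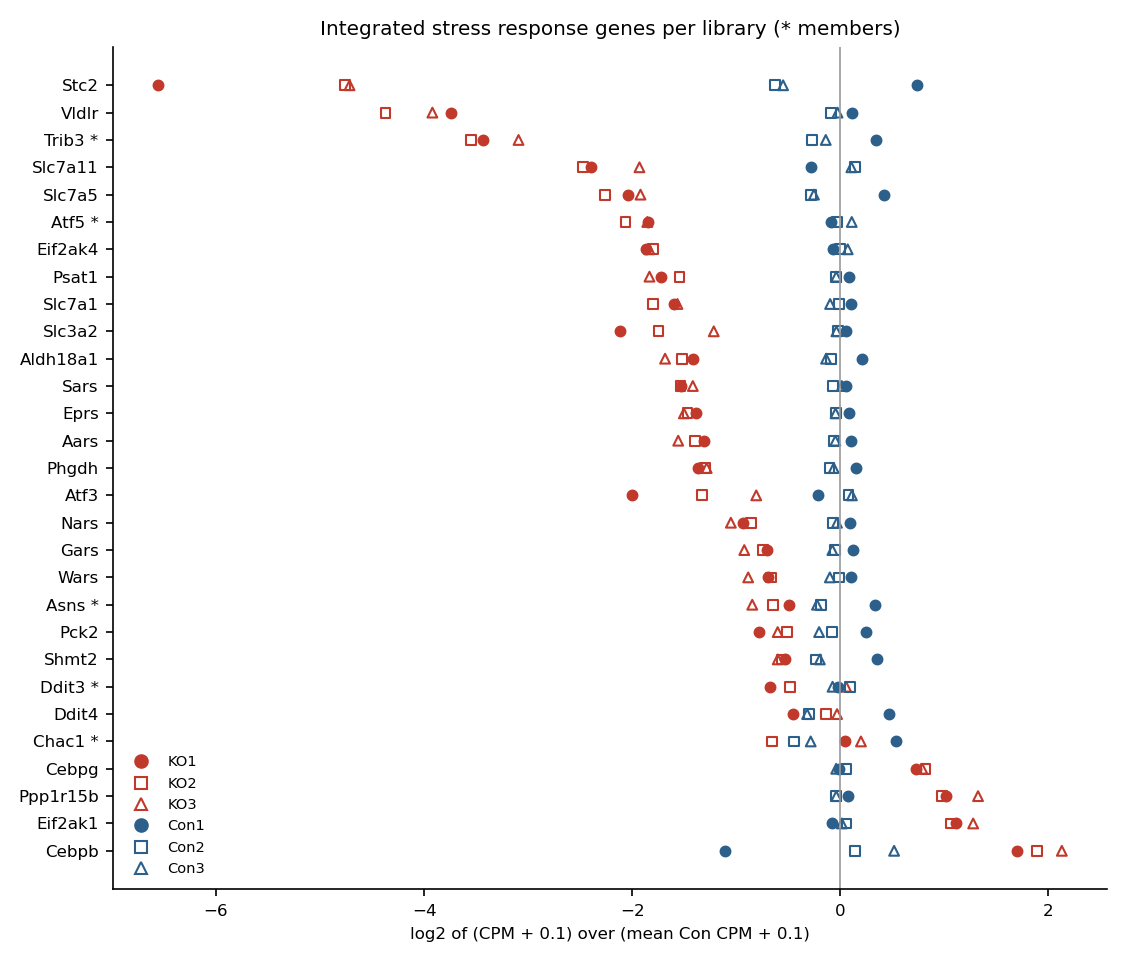
Log2 level of 29 integrated stress response genes in each library relative to the mean of the Con libraries (horizontal axis, CPM plus 0.1), KO in red and Con in blue, with members of the set marked by an asterisk. Filled circles are replicate 1, open squares replicate 2 and open triangles replicate 3. Most KO points lie left of the Con points, those of Cebpg, Ppp1r15b, Eif2ak1 and Cebpb lie right of them, and the filled blue circle of Con replicate 1 is the rightmost Con point in Stc2, Trib3, Slc7a5, Asns and Chac1.

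Other genes of these pathways came from lists chosen by function, with earlier results of these data known. Their counts stand beside 42.4% lower and 39.6% higher over all genes tested. Of 24 further genes of ER folding and glycosylation 23 fell and 0 rose, with 1 of no call (Fkbp14). In 9 further ER-associated degradation genes 5 fell and 1 rose. For 25 further genes of the integrated stress response the counts were 20 lower and 4 higher, and for 10 mitochondrial proteases and chaperones 9 lower and 0 higher. Stc2 and Cth, among the 20, had at most 2 counts in a KO-labelled library. Both passed the filter through the Con-labelled libraries alone, so their calls carry no weight. The oxidase Ero1a, which recharges the isomerases, averaged 224 ± 30.8 CPM in KO and 2881 ± 159 CPM in Con (SD, n = 3 each). Stt3a, the catalytic subunit of oligosaccharyltransferase, averaged 159 ± 8.42 CPM in KO and 467 ± 11.6 CPM in Con (SD, n = 3 each). Ufd1, of the complex that extracts proteins from the membrane, was the gene that rose in ER-associated degradation (0.27, SE 0.09), while Faf2 and Ubxn4, which recruit the same extraction machinery, changed by -0.98 and -0.55. The mitochondrial proteases Lonp1 and Afg3l2 changed by -1.89 (SE 0.09) and -1.80 (SE 0.10), and the lipoprotein receptor Vldlr, an ATF4 target, by -4.04 (SE 0.17).

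The kinases that start the integrated stress response did not move together. Eif2ak1, the heme-regulated eIF2α kinase known from erythroid cells, averaged 193 ± 15.2 CPM in KO and 86.5 ± 4.19 CPM in Con (SD, n = 3 each), a log2 change of 1.15 (SE 0.09, adjusted p = 1.44e-06). Eif2ak4, GCN2, the kinase that senses uncharged transfer RNA, averaged 17.4 ± 0.410 CPM in KO and 62.3 ± 3.02 CPM in Con (SD, n = 3 each), a change of -1.84 (SE 0.09, adjusted p = 1.06e-07). With Eif2ak3, 2 of the 3 eIF2α kinases measured were thus higher and 1 lower. Cebpg, a partner of ATF4, rose by 0.78, Ppp1r15b, a phosphatase subunit that restores translation, by 1.11, and the transcription factor Cebpb by 1.92. Erythroid markers rose in the same libraries, as given above.

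The abundant cytosolic heat shock proteins among those in the table fell. Over all genes tested 42.4% fell and 39.6% rose. Of the 8 cytosolic heat shock proteins tested 4 fell, 2 rose and 2 had no call (median -0.06). The median was -0.42 with library size only, -0.30 without KO replicate 3, and -0.43 over the 6 genes that passed the stricter filter. Of these 6 genes 4 fell and 1 rose. The call of Hspa12b, 1 of the 2 that rose in the main test, carries no weight. Hsp90ab1 and Hsp90aa1, the constitutive and the inducible cytosolic Hsp90, are the most abundant of the 8. Of 21 cytosolic heat shock genes listed, only these 8 were in the table, and Hspa8 was among those absent. Hsp90ab1 had 1527, 1823 and 2001 CPM in KO-labelled libraries, against 2750.2, 2574 and 2546 CPM in Con-labelled ones (log2 -0.56, SE 0.11). Hsp90aa1 had 835, 911 and 845 CPM in the KO group, against 1215, 1325 and 1314 CPM in the Con group (log2 -0.57, SE 0.09). Neither overlapped. Hsph1, the Hsp110 that recharges Hsp70, had 73.9, 122 and 96.6 CPM, against 158, 168 and 171 CPM in the Con group (log2 -0.76, SE 0.16, adjusted p = 0.00145), and its relative Hspa4 fell by 0.37.

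Hspa1b, the heat-inducible Hsp70, had 18.0, 20.1 and 37.8 CPM in KO-labelled libraries, against 15.5, 13.7 and 13.2 CPM in Con-labelled ones (log2 0.84, SE 0.26, adjusted p = 0.0149). KO replicate 3 was the high one, and the call was lost with library size only (0.48, adjusted p = 0.115). Its counts are not whole, and reads of its near-identical copy Hspa1a may be divided with it, so the value is uncertain. Hspa12b, an Hsp70 relative known from endothelium, had 17, 14 and 21 counts in KO replicates 1, 2 and 3, against 9, 10 and 9 counts in Con replicates 1, 2 and 3, and passed the filter through the KO-labelled libraries alone. The nucleotide exchange factor Hspbp1 (log2 0.25, adjusted p = 0.0821) and the small heat shock protein Hspb1 (log2 0.28, adjusted p = 0.476) had no call.

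Several J-domain proteins, which choose clients for cytosolic Hsp70, rose. Dnajb1, Hsp40, the usual partner of heat-inducible Hsp70, had 142, 176 and 192 CPM in KO replicates 1, 2 and 3, against 58.4, 52.5 and 55.3 CPM in Con replicates 1, 2 and 3, a 3.07-fold difference (log2 1.62, SE 0.12, adjusted p = 1.1e-06). Dnaja1, a general cochaperone, had 332, 487 and 513 CPM in the KO group, against 250.1, 264 and 253 CPM in the Con group (log2 0.80, SE 0.15, adjusted p = 0.000779). Dnaja4 had 25.9, 26.6 and 34.1 CPM, against 12.4, 8.96 and 9.04 CPM in the Con group (log2 1.51, SE 0.17). The groups stayed apart in all 3 genes, with KO replicate 1 the lowest of the KO libraries in each.

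The ratio of Dnajb1 to Hsph1, both textbook targets of HSF1, was 1.93, 1.44 and 1.99 in KO replicates 1, 2 and 3, against 0.370, 0.312 and 0.323 in Con replicates 1, 2 and 3. The ratio of Dnaja1 to Hsp90aa1 was 0.398, 0.534 and 0.608 in KO replicates 1, 2 and 3, against 0.206, 0.199 and 0.193 in Con replicates 1, 2 and 3. Such ratios do not depend on the scaling between libraries. Both pairs were chosen after their values were seen, as a gene that rose over a gene that fell, so their separation adds no support. Hsf1 itself averaged 40.2 ± 7.39 CPM in KO and 38.3 ± 1.93 CPM in Con (SD, n = 3 each), with no call (adjusted p = 0.63). Of 19 further genes of the heat shock response and chaperone cycle 6 fell, 3 rose and 10 had no call. Over all genes tested 42.4% fell and 39.6% rose. Fkbp5, an Hsp90 cochaperone known as a glucocorticoid target, rose by 1.16 (SE 0.08) and Ahsa2 by 0.74, while Cct3, a subunit of the cytosolic chaperonin, and St13, which joins Hsp70 to Hsp90, each fell by 1.10.

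Other J-domain proteins of this class had more specialised tasks. Dnajc9, which doubles as a histone chaperone, rose by 1.18 (SE 0.11), and the splicing-linked Dnajc17 by 0.51 (SE 0.15), the second lost with library size only (0.15, adjusted p = 0.402). Dnajc13, an endosomal protein, had 106, 102 and 96.6 CPM in KO-labelled libraries, against 169, 203 and 198 CPM in Con-labelled ones, and fell by 0.90. Dnajc6, auxilin, which uncoats clathrin vesicles, had 10.6, 5.55 and 6.05 CPM in the KO group, against 23.1, 16.3 and 16.7 CPM in the Con group (log2 -1.33, SE 0.25), with a wide spread within both. Dnajb5 fell by 0.94 and Dnajc21, which acts in ribosome maturation, by 0.70. Dnajc2, which binds ribosomes, and Dnaja2 had no call, with log2 changes of -0.21 (adjusted p = 0.0748) and 0.03 (adjusted p = 0.798).

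In mitochondria the main chaperones fell. Of 9 genes 4 fell, 2 rose and 3 had no call (median -0.20), a share of falls near the 42.4% of all genes. With library size only 6 fell and 0 rose (median -0.56). Hspa9, mortalin, the Hsp70 that pulls proteins into the matrix, had 297, 326 and 329 CPM in KO-labelled libraries, against 799, 734 and 758 CPM in Con-labelled ones (log2 -1.27, SE 0.08, adjusted p = 6.41e-07). Hspd1, Hsp60, had 332, 362 and 362 CPM in the KO group, against 574, 540.0 and 541 CPM in the Con group (log2 -0.65, SE 0.08, adjusted p = 4.35e-05). Its lid Hspe1, Hsp10, had 118, 155 and 152 CPM, against 179, 148 and 163 CPM in the Con group (log2 -0.20, SE 0.12, adjusted p = 0.135), with groups that overlap. The cochaperone Dnaja3 fell by 0.63 and Dnajc11, of the cristae junctions, by 0.45. Dnajc19 rose by 0.58 (SE 0.10) and Dnajc28 by 0.61 (SE 0.21), and both calls were lost with library size only (0.23, adjusted p = 0.0766, and 0.25, adjusted p = 0.275). That of Dnajc28 was lost as well without KO replicate 1, KO replicate 3 or Con replicate 2 (adjusted p = 0.0527, 0.0639 and 0.0627). Dnajc15 and Dnajc30 had no call.

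Hspd1 and Hspe1 are transcribed in opposite directions from a shared promoter, and the 2 windows held the same heat shock element. The element searched was GAA, TTC and GAA with 2 bases between each, on either strand. It was in 4 of the 60 windows (6.67%; Hspd1, Hspe1, Hsph1 and Sec62) and in 48 of 7341 over the table (0.654%). The promoters of Dnajb1 and Dnaja1 held no match within these bases. The sequence of Hspe1 is shown because Hspd1 and Hspe1 share their element. Hsph1, on another chromosome, carries a match of its own. That match is on the other strand and after the start, at bases 37 to 49 or 16 to 28 by the start used. Hspd1 fell, and Hspe1 had no call, although it passed at -0.29 when scaled by the upper quartile (adjusted p = 0.0412) and at -0.56 by library size alone (adjusted p = 0.00187).
Hspe1 (chr1:55088039-55088096, + strand): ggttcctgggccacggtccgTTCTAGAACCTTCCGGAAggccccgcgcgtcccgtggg
Hsph1 (chr5:149636268-149636320, - strand): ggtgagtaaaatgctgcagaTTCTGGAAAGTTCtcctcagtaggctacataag
Capitals mark the match, which in Hspe1 consists of 2 overlapping copies and in Hspd1 reads as the reverse complement. The ratio of Hspe1 to Hspd1 was 0.357, 0.427 and 0.421 in KO replicates 1, 2 and 3, against 0.312, 0.274 and 0.301 in Con replicates 1, 2 and 3. All 3 KO ratios lay above the Con ratios, for a pair set against each other after the values were seen. Of the 4 carriers Hsph1 and Hspd1 fell, and Hspe1 and Sec62 had no call. Of all carriers 41 were tested, of which 17 fell, 14 rose and 10 had no call. These include genes at or near 0 CPM in a whole group, which passed the filter through the other group alone. Gm364 and Sytl5 were such genes among those that fell, and Cd209a, Calr4 and H2ac6 among those that rose. Their calls carry no weight. The shares over all genes tested were 42.4% lower and 39.6% higher.

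The 8 remaining genes entered by prefix. Sel1l3 had 0, 0 and 2 counts in KO replicates 1, 2 and 3 and 80, 34 and 37 counts in Con replicates 1, 2 and 3. It passed the filter through the Con-labelled libraries alone, so it had to differ and its call carries no weight. From pooled counts its level was 48.0-fold lower in KO (exact 95% interval 13.1 to 400, counting error only, without the scatter among samples). Dnajc16 had 14.7, 9.87 and 14.5 CPM in KO-labelled libraries, against 47.1, 45.6 and 47.2 CPM in Con-labelled ones (log2 -1.84, SE 0.14). Hspg2, perlecan, a product of stroma and endothelium, had 23.4, 17.6 and 17.9 CPM in the KO group, against 2.42, 2.12 and 2.00 CPM in the Con group (log2 3.16, SE 0.19, adjusted p = 3.74e-07). Of 6 stromal and endothelial markers 5 rose and 1 fell in the same libraries, with summed levels of 315 to 516 CPM against 380.5 to 386 CPM, ranges that overlap. Most of the Con sum was Pecam1, the 1 that fell, with 70.1 to 93.8 CPM in KO against 366 to 376 CPM in Con. The overlap of the sums does not hold for the other 5, each higher in all 3 KO-labelled libraries. Among them Stab2, with at most 4 counts in a Con library, passed the filter through the KO-labelled libraries alone. Hspbap1 rose by 1.09 (SE 0.14), Dnajc12, Dnajc18 and Dnajc27 fell by 1.00, 0.92 and 0.74, and Dnajc25 had no call.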

How the data were processed

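Bone marrow RNA of 6 samples was sequenced from libraries made with an mRNA kit, per the labels' protocols. The authors deposited expected counts per gene in 1 table of 9295 genes, of which 15.6% hold values that are not whole. No label or header names the counting tool or whether strand was used. A human build, GRCh38, stands in the submitters' processing notes although the genes are murine, so the only coordinates printed are those of the promoter table (GRCm38.p6). Counts were rounded and tested with edgeR 4.0.16 (R 4.3.3; TMM scaling, its default filter on low counts, robust quasi-likelihood test, KO over Con, no covariates), with Benjamini-Hochberg adjustment over 8358 genes and a threshold of 0.05, and the procedure was tested on simulated data. Alternatives used DESeq2 1.42.0, limma-voom (limma 3.58.1), other scalings and filters, a replicate block and leaving out each sample. Correlations of deviations between samples of the same number were 0.019, 0.029 and 0.001, so the numbers were not taken as pairs. Members and lists were chosen with earlier results of these data known. Every member could be named. Values per library went to the members with the highest level and the largest changes in each role class and to all channel, sensor and integrated stress response genes, and the pathway genes named were led by the smallest adjusted p. Fkbp14, Cebpb, Ppp1r15b, Hsf1, Alg12, Shmt2, Slc7a5, Stc2, Pck2 and Ddit4, and the ratios between genes, were chosen after their values were seen. So were Slc7a11, Atf3, Cth, Calr4, Zfp57, Gm364, Sytl5, Cd209a, H2ac6 and the cell type markers named. Retention signals at protein ends were planned and not analysed here.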

Additional observations from a re-analysis of the deposited data

How the results depend on the processing

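Of the 62 genes of the set with a call, 56 kept it in each of the 15 alternatives that tested them, and none reversed; the stricter filter left Hspa12b, Pdia2 and Sel1l3 untested. Calls of Hspa1b, Dnajc17, Dnajc19, Dnajc28, Sec61b and Eif2ak3 were lost under at least 1. A further 8 members gained a call in some alternative without a change of sign, and Dnaja2 gained one with its sign turned, as given below. The 8 were Hspbp1, Dnajc2, Ddit3, Hspe1, Dnajc15, Dnajc25, Sec61g and Sec62, of which all but Hspbp1 gained one, as lower, with library size only. With library size only, 10 members rose in place of 16 and their median was -1.0 in place of -0.64, and over all genes 2488 rose and 4476 fell, so that 35.7% of changed genes were higher in place of 48.3%. This scaling moves the median of all genes by -0.35. Leaving out each library gave 15 to 16 higher and 46 to 48 lower members, and 6485 to 6855 changed genes. The replicate block gave 6766 changed genes, with 16 members higher and 47 lower; only samples numbered 1 correlated best with their own number. Among members with no call the sign turned as follows, and the cause was not tested. Sec62 was -0.36 with library size only (adjusted p = 0.00295), 0.05 with DESeq2, 0.05 with RLE factors, 0.03 with the stricter filter of 50 counts in 3 libraries, 0.02 with Con replicates 2 and 3 summed, and -0.07 to 0.06 when each library was left out, above 0 without KO replicate 2, Con replicate 2 or Con replicate 3. Dnaja2 was -0.06 with upper-quartile factors and -0.33 with library size only (adjusted p = 0.013), and -0.03 to 0.12 when each library was left out. With library size only Hspbp1 was -0.11, Hspb1 -0.08 and Dnajc30 -0.23, and Hspb1 ran from -0.20 without KO replicate 3 to 0.50 without KO replicate 1. Chac1 ran from -0.27 without KO replicate 3 to 0.28 without Con replicate 1, was 0.12 without KO replicate 2, and was 0.08 with limma-voom. With 3 libraries a group, genes of few counts such as Hspa12b, Pdia2 and Sel1l3 are the least certain.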
